A study of Populus yunnanensis and Populus davidiana with 24 samples.

Results

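The genes described here encode the middle steps of monolignol synthesis, from hydroxycinnamoyl transferase (HCT) to cinnamoyl-CoA reductase (CCR), in stems of cuttings of 2 poplars, Populus yunnanensis and Populus davidiana. They are 9 gene models of 43836 in the expression table, picked by enzyme step, by identifier, from the published gene names of Populus trichocarpa. They are HCT1 (Potri.003G183900.v3.1), HCT6 (Potri.001G042900.v3.1), C3H3 (Potri.006G033300.v3.1), CSE1 (Potri.003G059200.v3.1), CSE2 (Potri.001G175000.v3.1), CCoAOMT1 (Potri.009G099800.v3.1), CCoAOMT2 (Potri.001G304800.v3.1), CCoAOMT3 (Potri.008G136600.v3.1) and CCR2 (Potri.003G181400.v3.1). The first number in each identifier is the chromosome, so that HCT1, CSE1 and CCR2 carry the number 3 and HCT6, CSE2 and CCoAOMT2 the number 1, and start and end positions were not used here. All 9 were above 0 in every library, and all 9 were among the 24643 genes with at least 1 FPKM (fragments per kilobase of transcript, scaled to the mapped fragments of the library) in at least 3 libraries, which were tested.

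The study took 15-cm pieces of annual branches, stripped of buds and leaves, as cuttings of both species and sequenced stem mRNA at 0, 48, 96 and 120 h. Each of the 8 groups of species and time held 3 replicates, which gave 24 libraries, all labelled with the same treatment, cutting. Neither a transgene nor an added compound is named in the labels, which give no age of the trees and do not say whether replicates are separate plants, so a p-value here covers only how far these libraries vary, possibly for technical reasons. Per its title, the study concerns how the rooting of poplars differs.

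Monolignols are the alcohols that plants polymerise into lignin, the stiffening polymer of wood, fibres and healing bark. In the middle of the route HCT joins a coumaroyl group to shikimate, C3H adds a hydroxyl to that ester, and caffeoyl shikimate esterase (CSE) frees caffeate from it. Caffeoyl-CoA O-methyltransferase (CCoAOMT) then methylates the activated caffeoyl group, and CCR makes the first aldehyde of the branch that leads to lignin. Poplars carry several copies of most of these genes, many of them left by a genome duplication, and reads of near-identical copies can be assigned to the wrong one. The labels do not say how such reads were counted, and levels of the paired copies are uncertain to that extent.

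Read numbers are unknown. Ratios of low FPKM values placed the relative depth of mapped fragments between 0.62 and 1.11 times that of one P. yunnanensis library, with a mean of 0.948 ± 0.0872 in P. yunnanensis and 0.73 ± 0.0663 in P. davidiana (SD, n = 12 each). The P. yunnanensis 0 h libraries stood farther apart than any other group, where the log2 values had a residual SD of 0.73 against 0.41 to 0.55 elsewhere. A set of 5 secondary wall cellulose synthases (CesA4, CesA7 and CesA8), markers of wood-forming xylem, were above 0 in every library. Their summed level in P. yunnanensis at 0 h was 29.0, 4.60 and 127 FPKM in replicates 1, 2 and 3, and at 0 h in P. davidiana it ranged from 12 to 31.5 FPKM. From 48 h on it lay between 0.62 and 10.6 FPKM in every library. In such bulk stem samples, fewer cells of a type and less RNA per cell cannot be told apart.

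In fresh cuttings 6 of the 9 enzyme genes were lower in P. davidiana than in P. yunnanensis (limma, adjusted p under 0.05). Of all tested genes, 41.4% differed and 22.4% were lower. With the 0 h libraries alone in the fit, 3 of the 9 were lower. In that fit 6122 of all tested genes differed, 2723 of them higher in P. davidiana. The fit over all libraries had 10209 and 4682. The summed level fell in P. yunnanensis, by 48 h already, and the species lay closer together at 120 h than at 0 h. The summed level of the 9 genes at 0 h was 727 to 1069 FPKM in P. yunnanensis and 131 to 212 FPKM in P. davidiana. At 48 h it was 233 to 278 FPKM in P. yunnanensis and 104 to 178 FPKM in P. davidiana. At 120 h it was 201 to 254 FPKM in P. yunnanensis and 171 to 268 FPKM in P. davidiana. Replicate 1 of P. davidiana, at 268 FPKM, lay above every P. yunnanensis library there. Replicates 2 and 3, at 176 and 171 FPKM, lay below all of them. C3H3 and CCR2 made up most of the P. yunnanensis sum at 0 h. CCoAOMT3 ran the other way, being higher in P. davidiana.

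**Figure D1:**
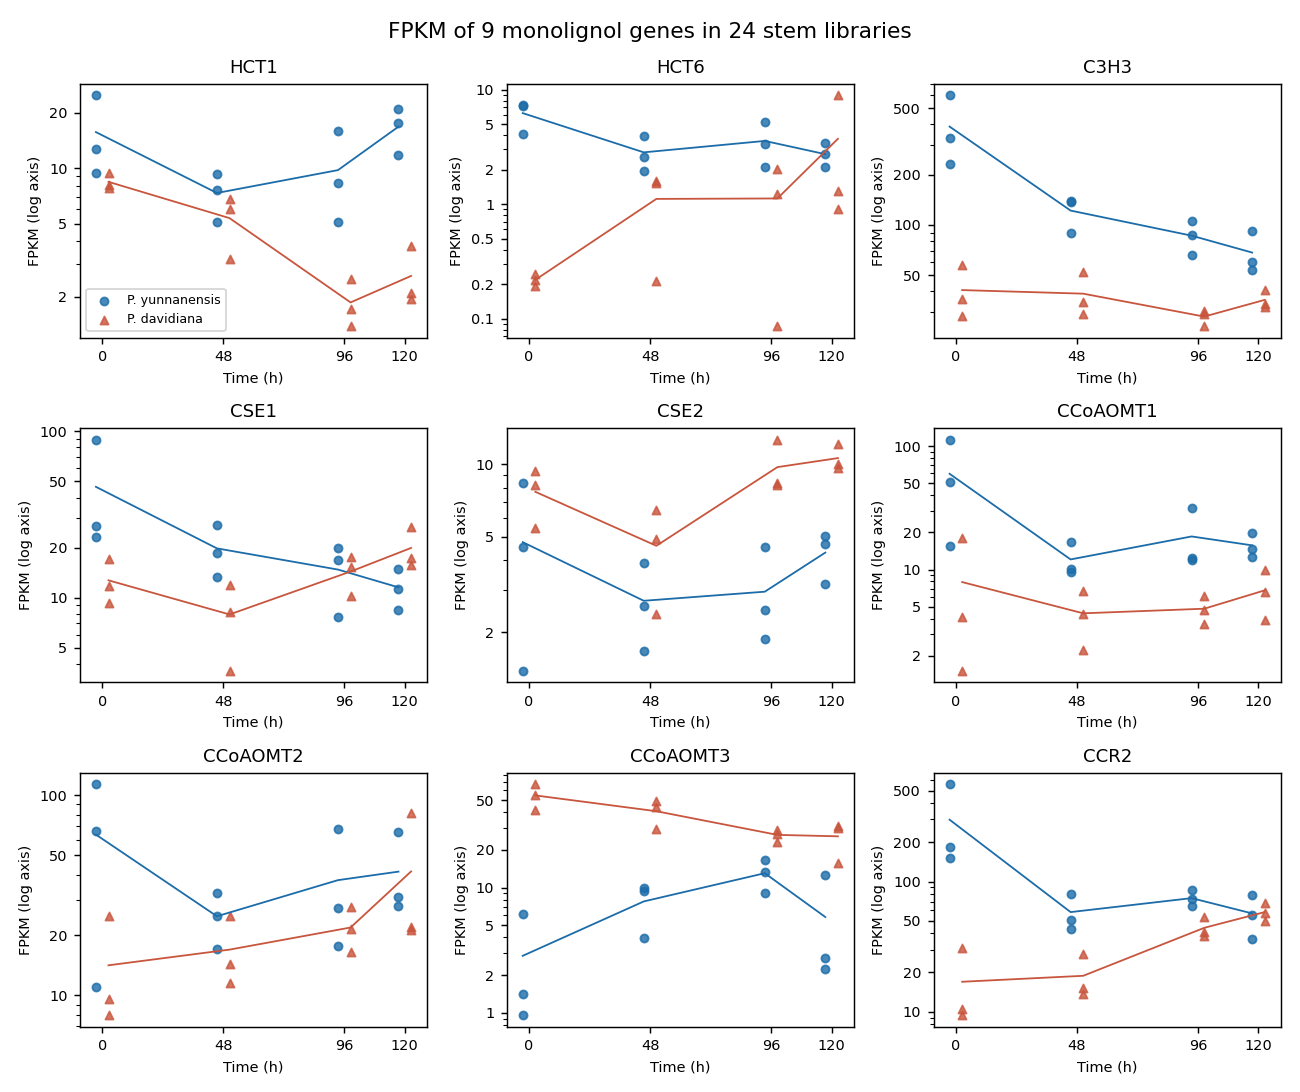
FPKM of each gene on a log axis against time in h, 1 point per library (circles, P. yunnanensis, and triangles, P. davidiana, 3 per species and time), with lines through the arithmetic group means. C3H3 and CCR2 start at 153 to 599 FPKM in P. yunnanensis and at 9.40 to 57.2 FPKM in P. davidiana, while CCoAOMT3 lies higher in P. davidiana at every time.

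HCT1 encodes the first enzyme of this stretch. In P. yunnanensis it stood at 9.46, 24.9 and 12.7 FPKM at 0 h, at 5.09, 7.56 and 9.31 at 48 h, at 8.34, 5.09 and 15.8 at 96 h and at 21.0, 11.8 and 17.6 at 120 h, in replicates 1 to 3. The P. davidiana libraries held 9.36, 8.13 and 7.77 FPKM at 0 h, 3.19, 6.03 and 6.83 at 48 h, 1.39, 2.495 and 1.71 at 96 h and 3.76, 2.09 and 1.94 at 120 h. The P. davidiana libraries at 96 and 120 h were thus below all others of the 24 except 1, the 48 h replicate 1 library of that species, which lay within the 120 h range. Against 0 h, HCT1 fell by 1.73 on the log2(FPKM + 1) scale in P. davidiana at 96 h (SE 0.38, adjusted p = 0.00383 in limma), and the 120 h change was -1.42 (SE 0.38, adjusted p = 0.0109). In P. yunnanensis its difference from 0 h at 120 h was 0.16 (95% confidence interval -0.62 to 0.95, adjusted p = 0.766), and with median ratio scaling it was -0.28. Between the species HCT1 was lower in P. davidiana by a log2 difference of -1.80 at 96 h (SE 0.38, adjusted p = 0.000627) and of -2.30 at 120 h (SE 0.38, adjusted p = 5.24e-05). The changes by 120 h differed between the species by -1.58 (SE 0.53, adjusted p = 0.0494). That last call was at the threshold and ended under 15 of 21 alternatives (adjusted p up to 0.126).

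HCT6, the other transferase gene among the 9, was the least abundant of them in P. davidiana at 0 h. It stood there at 0.243, 0.218 and 0.193 FPKM, then at 1.60, 0.212 and 1.52 at 48 h, 2.04, 0.086 and 1.23 at 96 h and 8.93, 0.912 and 1.30 at 120 h. In P. yunnanensis it was 7.40, 4.06 and 7.22 FPKM at 0 h and between 1.93 and 5.25 in the 9 later libraries. Replicate 2 of P. davidiana was the lowest of its group at 48, 96 and 120 h, and the 120 h replicate 1 library was the highest of the 24. At 0 h HCT6 was lower in P. davidiana by a log2 difference of -2.53 (SE 0.50, adjusted p = 0.000396), with no overlap between the species. By 120 h it rose in P. davidiana by 1.53 on that scale (SE 0.50, adjusted p = 0.0345), which understates the change of a gene this low. The rise rested on the replicate 1 library, without which it was 0.78 (adjusted p = 0.243), and it also ended without any 1 of the 0 h libraries (adjusted p = 0.0745 to 0.083), with the 6 compared libraries alone (adjusted p = 0.173) and with no filter (adjusted p = 0.0516). The changes by 120 h differed between the species by 2.46 (SE 0.70, adjusted p = 0.024), a call that ended without P. davidiana 120 h replicate 1 (1.72, adjusted p = 0.0512) or without P. yunnanensis 0 h replicate 1 (2.34, adjusted p = 0.0526), and with the compared groups alone or a spread weighted by group (adjusted p = 0.0559 and 0.07).

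As a share of the sum of HCT1 and HCT6, HCT1 held 97.4 to 97.6% in the P. davidiana libraries at 0 h. In those of P. yunnanensis it held 56.1 to 86.0%. Other HCT genes, if the expression table holds any, are not in this sum. At 120 h the order was turned, with 29.6 to 69.6% in P. davidiana and 84.9 to 86.6% in P. yunnanensis. These shares are descriptions of single libraries and were not tested.

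C3H3 encodes the cytochrome P450 that hydroxylates the shikimate ester. In P. yunnanensis it stood at 233, 599 and 334 FPKM at 0 h, at 138, 89.4 and 138 at 48 h, at 106, 86.9 and 65.7 at 96 h and at 53.3, 91.8 and 59.8 at 120 h. The 0 h libraries lay above all others, and their mean ranked 219 from the top among the 24643 tested genes. In P. davidiana C3H3 was 57.2, 28.7 and 36.2 FPKM at 0 h and between 24.8 and 52.2 in the 9 later libraries, with overlap between all times and 0 h. By 48 h it fell by 1.58 in P. yunnanensis (SE 0.32, adjusted p = 0.00202). By 96 h the log2 change was -2.07 (adjusted p = 0.000124) and by 120 h it was -2.42 (adjusted p = 2.07e-05). The 48 h call ended with the 6 compared libraries alone in the fit (adjusted p = 0.14), and those at 96 and 120 h held under every alternative run (adjusted p up to 0.0413 and 0.0285). In P. davidiana the difference from 0 h at 120 h was -0.14 (95% confidence interval -0.80 to 0.52, adjusted p = 0.855).

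The species gap in C3H3 narrowed with time. P. davidiana was lower by a log2 difference of -3.17 at 0 h (SE 0.32, adjusted p = 1.38e-07), -1.64 at 48 h (adjusted p = 0.000335), -1.56 at 96 h (adjusted p = 0.000519) and -0.89 at 120 h (adjusted p = 0.027), with no overlap at any time. The 120 h difference ended with median ratio scaling (-0.66, adjusted p = 0.16), with the replicate number as a block (-0.74, adjusted p = 0.168), and without P. yunnanensis 120 h replicate 2 (-0.66, adjusted p = 0.128), P. davidiana 120 h replicate 2 (-0.83, adjusted p = 0.0784) or P. davidiana 120 h replicate 3 (-0.85, adjusted p = 0.0718). The test of the narrowing itself gave 2.28 at 120 h (SE 0.45, adjusted p = 0.00248) and held under all 21 alternatives. At 96 h it gave 1.61 (SE 0.45, adjusted p = 0.0296), and that call ended without any 1 of 7 libraries (adjusted p = 0.0515 to 0.0807) or with the compared groups alone (adjusted p = 0.077).

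CSE1 and CSE2 encode the esterase that frees caffeate. CSE1 was at 89.1, 23.1 and 27.0 FPKM in P. yunnanensis at 0 h, at 13.3, 27.4 and 18.6 at 48 h, at 7.68, 16.8 and 19.8 at 96 h and at 8.43, 11.4 and 14.8 at 120 h. In P. davidiana it was at 9.31, 11.8 and 17.1 FPKM at 0 h, at 11.9, 3.65 and 8.24 at 48 h, at 15.3, 17.5 and 10.3 at 96 h and at 26.8, 15.7 and 17.3 at 120 h. At 0 h every P. yunnanensis library was above every P. davidiana library, and at 120 h every one was below. CSE1 fell in P. yunnanensis, with a log2 change of -1.41 at 96 h (SE 0.46, adjusted p = 0.0273) and of -1.68 at 120 h (SE 0.46, adjusted p = 0.00813). With the 6 compared libraries alone neither passed (adjusted p = 0.177 and 0.0888), nor did the 96 h value with a spread weighted by group (adjusted p = 0.077). Without the 0 h replicate 1 library these values were -0.82 (adjusted p = 0.167) and -1.08 (adjusted p = 0.0596), and without 96 h replicate 1 the 96 h value was -1.03 (adjusted p = 0.128).

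The species difference in CSE1 was -1.56 at 0 h (SE 0.46, adjusted p = 0.00993) and -1.28 at 48 h (SE 0.46, adjusted p = 0.0299). At 120 h it was 0.73 (95% confidence interval -0.22 to 1.69, adjusted p = 0.199), and it passed with quantile normalization (1.06, adjusted p = 0.0388). The 0 h call ended without P. yunnanensis 0 h replicate 1 (-0.96, adjusted p = 0.084), and the 48 h call without P. davidiana 48 h replicate 2 (-0.87, adjusted p = 0.173) or P. yunnanensis 48 h replicate 2 (-1.03, adjusted p = 0.125) or 3 (-1.30, adjusted p = 0.0608). With the replicate block they were -1.24 (adjusted p = 0.123) and -0.97 (adjusted p = 0.232), and with the 6 compared libraries alone neither passed (adjusted p = 0.0808 and 0.0548). The changes by 120 h differed between the species by 2.29 (SE 0.65, adjusted p = 0.0231), which ended without replicate 1 of any 1 of the 4 groups (1.69 to 2.10, adjusted p = 0.0533 to 0.0659). By 96 h they differed by 1.59 (adjusted p = 0.125), which passed with median ratio scaling (1.91, adjusted p = 0.047) and quantile normalization (1.84, adjusted p = 0.0478).

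CSE2 was the lower copy, at 1.39 to 8.33 FPKM over the 12 P. yunnanensis libraries (median 3.54) and 2.39 to 12.7 over those of P. davidiana (median 8.28). It was at 8.22, 12.7 and 8.33 FPKM in P. davidiana at 96 h against 1.88, 2.47 and 4.52 in P. yunnanensis, a log2 difference of 1.47 (SE 0.41, adjusted p = 0.00587) that held under every alternative run. At 120 h it was at 12.2, 10.005 and 9.70 FPKM against 4.67, 3.19 and 5.04, a difference of 1.15 (SE 0.41, adjusted p = 0.0259). This second call ended with the replicate block (1.22, adjusted p = 0.0577) and without P. yunnanensis 120 h replicate 2 (0.98, adjusted p = 0.0875), P. davidiana 120 h replicate 1 (1.05, adjusted p = 0.0735) or P. davidiana 120 h replicate 2 (1.18, adjusted p = 0.0516). CSE2 passed no test of time as fitted, and from 48 to 120 h in P. davidiana its change of 1.13 (adjusted p = 0.107) passed with a spread weighted by group (adjusted p = 0.0326), as did that of CSE1 (1.31, adjusted p = 0.0956 and 0.0337). Of the sum of CSE1 and CSE2, CSE1 held 64.3 to 95.2% over the P. yunnanensis libraries and 55.2 to 70.9% over those of P. davidiana. The ranges of the species were apart at 0, 48 and 96 h.

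Among the 3 methyltransferase genes, CCoAOMT3 differed from the other copies in direction. It stood at 41.9, 54.6 and 67.0 FPKM in P. davidiana at 0 h, at 48.9, 29.6 and 43.8 at 48 h, at 26.8, 23.3 and 29.0 at 96 h and at 15.8, 30.0 and 31.3 at 120 h. In P. yunnanensis it was at 1.43, 0.96 and 6.18 FPKM at 0 h, at 9.93, 9.40 and 3.95 at 48 h, at 13.4, 16.7 and 9.06 at 96 h and at 2.25, 12.5 and 2.72 at 120 h. The species were apart at all 4 times. CCoAOMT3 was higher in P. davidiana by a log2 difference of 4.07 at 0 h (SE 0.49, adjusted p = 1.69e-06), 2.31 at 48 h (SE 0.49, adjusted p = 0.000839) and 2.23 at 120 h (SE 0.49, adjusted p = 0.00103), each held under all 15 alternatives. At 96 h the difference was 1.00 (SE 0.49, adjusted p = 0.105), and it passed with quantile normalization (1.32, adjusted p = 0.049), the 6 compared libraries alone (adjusted p = 0.0107) and a spread weighted by group (adjusted p = 0.0484).

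CCoAOMT3 rose in P. yunnanensis by 2.08 at 96 h (SE 0.49, adjusted p = 0.0045), a call that ended with the 6 compared libraries alone (adjusted p = 0.0784). At 48 h its change was 1.35 (adjusted p = 0.0695), and without 0 h replicate 3, the highest of that group, it was 1.92 (adjusted p = 0.0107) and without 48 h replicate 3 1.72 (adjusted p = 0.0468). At 120 h the change was 0.75 (adjusted p = 0.242), and without 0 h replicate 3 it was 1.33 (adjusted p = 0.0371). In P. davidiana the difference from 0 h was -0.999 at 96 h (adjusted p = 0.195) and -1.09 at 120 h (adjusted p = 0.131), with no overlap at either time. The 96 h difference passed with the 6 compared libraries alone (adjusted p = 0.0423) and the 120 h difference with a spread weighted by group (adjusted p = 0.0496). The changes by 96 h differed between the species by -3.08 (SE 0.70, adjusted p = 0.00939), under all 21 alternatives.

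CCoAOMT1 and CCoAOMT2 had the largest standard errors of the 9 genes, 0.64 and 0.68 for a difference of 2 groups. CCoAOMT1 was at 50.9, 15.4 and 113 FPKM in P. yunnanensis at 0 h and at 4.09, 1.52 and 18.1 in P. davidiana, which overlapped, and the log2 difference was -2.87 (SE 0.64, adjusted p = 0.0012), a call that ended with the 6 compared libraries alone (adjusted p = 0.0725). It was lower in P. davidiana at 96 h too, at 4.69, 3.61 and 6.14 FPKM against 11.9, 12.3 and 31.4 (log2 difference -1.63, SE 0.64, adjusted p = 0.0426), a call that ended without any 1 of 5 of these 6 libraries (adjusted p = 0.051 to 0.189), with the replicate block (-1.49, adjusted p = 0.129) with both other scalings (adjusted p = 0.0523 and 0.0823) and with no filter (adjusted p = 0.0598). In P. yunnanensis its differences from 0 h were -1.85, -1.37 and -1.48 at 48, 96 and 120 h (adjusted p = 0.0542, 0.113 and 0.0756). Without 0 h replicate 2 they were -2.60, -2.12 and -2.22 (adjusted p = 0.00809, 0.0218 and 0.0123), and all 3 passed too with either other scaling (adjusted p = 0.013 to 0.0318). With the replicate block the 48 h value passed (adjusted p = 0.042), as it did with a filter of 5 FPKM (adjusted p = 0.0498). In P. davidiana CCoAOMT1 was between 2.22 and 9.95 FPKM in the 9 libraries after 0 h and passed no test of time.

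CCoAOMT2 was at 114, 10.97 and 66.2 FPKM in P. yunnanensis at 0 h and at 9.60, 7.97 and 24.8 in P. davidiana, a log2 difference of -1.74 (SE 0.68, adjusted p = 0.045). That call ended under 8 of 15 alternatives, among them leaving out P. yunnanensis 0 h replicate 1 (-1.07, adjusted p = 0.241) or 3 (-1.46, adjusted p = 0.144) and P. davidiana 0 h replicate 1 (-1.57, adjusted p = 0.121) or 2 (-1.45, adjusted p = 0.152), and with the replicate block it was -1.67 (adjusted p = 0.106). At 120 h the species were nearly level in mean, at 65.9, 27.9 and 30.8 FPKM in P. yunnanensis and 81.6, 21.3 and 21.9 in P. davidiana, with replicate 1 the highest in both. The difference there was -0.18 (95% confidence interval -1.60 to 1.23, adjusted p = 0.847), and with median ratio scaling it was 0.05. CCoAOMT2 passed no test of time, and without P. yunnanensis 0 h replicate 2 its 48 h change was -1.81 (adjusted p = 0.0489) and the species difference in the change by 120 h was 2.52 (adjusted p = 0.0402).

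Of the sum of CCoAOMT1, CCoAOMT2 and CCoAOMT3, CCoAOMT3 held 60.9 to 85.2% in the P. davidiana libraries at 0 h and 0.859 to 3.52% in those of P. yunnanensis. At 120 h it held 14.7 to 54.9% and 2.56 to 22.7%, overlapping through P. davidiana replicate 1. CCoAOMT2 was the copy with the highest median share in P. yunnanensis, at 49.7% over 12 libraries, and CCoAOMT1 that with the lowest in P. davidiana, at 8.14%.

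**Figure D2:**
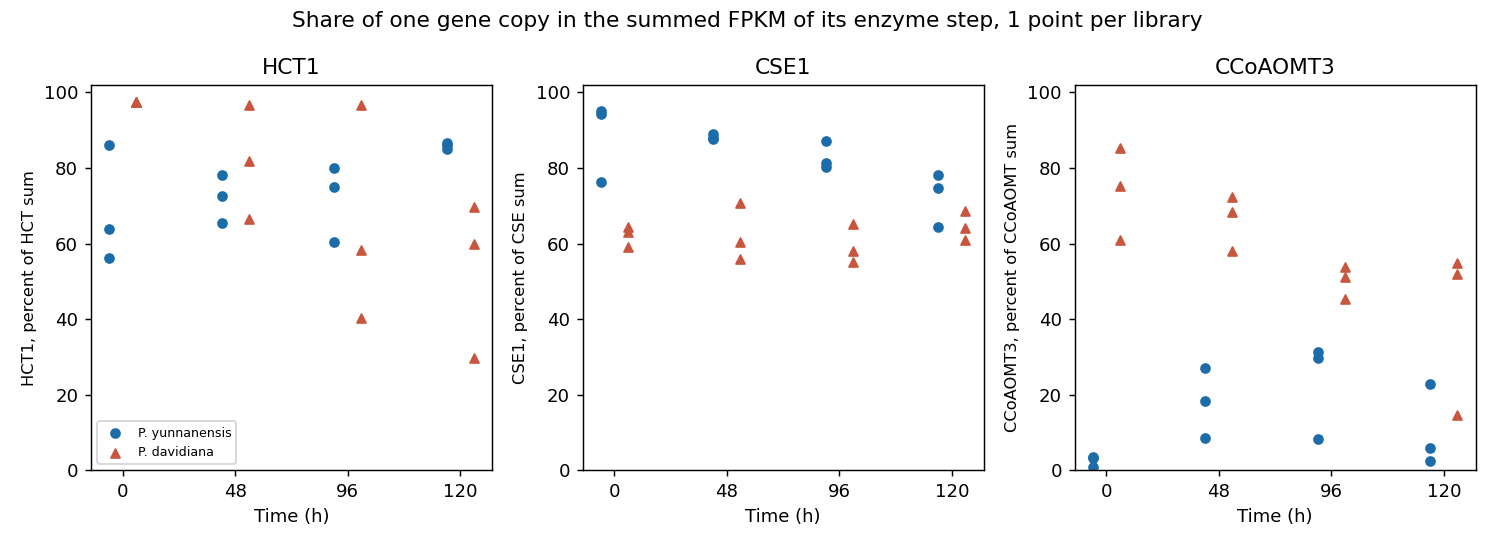
Share in percent of HCT1, CSE1 and CCoAOMT3 in the summed FPKM of their enzyme step, against time in h, 1 point per library (circles, P. yunnanensis, and triangles, P. davidiana). At 0 h CCoAOMT3 holds 60.9 to 85.2% in P. davidiana and at most 3.52% in P. yunnanensis, and CSE1 is the larger copy, above 55%, in every library.

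CCR2, which encodes the enzyme that commits the pathway to lignin aldehydes, changed in opposite directions in the species. In P. yunnanensis it stood at 560, 183 and 153 FPKM at 0 h, at 80.8, 50.4 and 43.4 at 48 h, at 64.4, 86.3 and 72.8 at 96 h and at 36.4, 79.1 and 55.1 at 120 h. In P. davidiana it was at 9.40, 10.4 and 31.1 FPKM at 0 h, at 15.3, 13.7 and 27.6 at 48 h, at 40.6, 53.8 and 37.8 at 96 h and at 68.1, 56.9 and 49.8 at 120 h. All P. yunnanensis libraries at 0 h were above every other library, and the 96 and 120 h libraries of P. davidiana were above its own at 0 and 48 h. CCR2 fell in P. yunnanensis, with log2 changes of -2.14 at 48 h (SE 0.44, adjusted p = 0.00259), -1.75 at 96 h (adjusted p = 0.00694) and -2.19 at 120 h (adjusted p = 0.00104). In P. davidiana it rose by 1.51 at 96 h (SE 0.44, adjusted p = 0.025) and by 1.91 at 120 h (SE 0.44, adjusted p = 0.0045). Between 48 and 120 h in P. davidiana the rise was 1.63 (SE 0.44, adjusted p = 0.034).

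The calls of CCR2 differed in how they held. All 3 falls in P. yunnanensis held without any 1 library and ended with the 6 compared libraries alone (adjusted p = 0.135, 0.0888 and 0.0567). The rise at 120 h in P. davidiana also held without any 1 library and ended with the 6 compared libraries alone (adjusted p = 0.0515). The rise at 96 h ended without any 1 library but 0 h replicate 3 (adjusted p = 0.0505 to 0.127) and with the 6 compared libraries alone (adjusted p = 0.112). The rise from 48 to 120 h without any 1 but 48 h replicate 3 (adjusted p = 0.0754 to 0.18) with median ratio scaling (adjusted p = 0.0524) and with the 6 compared libraries alone (adjusted p = 0.0663). P. davidiana was lower by a log2 difference of -4.01 at 0 h (SE 0.44, adjusted p = 4.93e-07) and -1.59 at 48 h (SE 0.44, adjusted p = 0.00672), each under all 15 alternatives. At 96 h the difference was -0.75 (adjusted p = 0.173), and at 120 h it was 0.09 (95% confidence interval -0.83 to 1.01, adjusted p = 0.883). The changes differed between the species by 3.26 at 96 h (SE 0.63, adjusted p = 0.00323) and by 4.10 at 120 h (SE 0.63, adjusted p = 0.000365), under all 21 alternatives each. At 48 h they differed by 2.42 (SE 0.63, adjusted p = 0.0501), and this passed without P. davidiana 0 h replicate 3 (2.94, adjusted p = 0.0172), P. yunnanensis 0 h replicate 2 (2.64, adjusted p = 0.0389) or 3 (2.77, adjusted p = 0.0198), or P. yunnanensis 48 h replicate 1 (2.68, adjusted p = 0.0392).

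The order of the group means shows where each gene stood. C3H3 was highest in P. yunnanensis at 0 h and lower at 48, 96 and 120 h, and all 4 P. davidiana groups followed. For C3H3 and CCR2 the P. yunnanensis 0 h libraries did not overlap with the group next in order, and for CCoAOMT3 all 4 P. davidiana groups had higher means than any P. yunnanensis group. For HCT1, CSE1, CSE2, CCoAOMT1 and CCoAOMT2 each group overlapped with its neighbour in the order. By level, C3H3 and CCR2 in P. yunnanensis at 0 h lay at the 99.1 and 98.7 percentiles of tested genes, and HCT6 in P. davidiana at 0 h lay at the 11.9 percentile.

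The time comparisons asked which genes changed in the cuttings after 0 h. In P. yunnanensis 2 of the 9 genes changed by 48 h, both lower (C3H3 and CCR2), where 15.6% of all tested genes changed and 6.49% were lower. At 96 h 3 were lower (C3H3, CSE1 and CCR2) and 1 higher (CCoAOMT3), against 27.4% changed and 6.12% lower among all genes, and at 120 h 3 were lower (C3H3, CSE1 and CCR2), against 36.1% and 8.47%. The share of changed genes at 120 h was thus near that of all genes, but their direction was not the common one in the values as deposited, where most changed genes were higher. Without 0 h replicate 2 the count at 48 h was 4, with CCoAOMT1 and CCoAOMT2 added. From 48 to 120 h limma called 0 of the 9 in P. yunnanensis, against 1.87% of all genes called. At an unadjusted p under 0.05 there were 2 of the 9, and the share of all genes at that threshold was not taken.

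Rescaling mattered for P. yunnanensis, because the median tested gene moved by 0.10, 0.33 and 0.34 log2 units from 0 to 48, 96 and 120 h as deposited. As deposited 5245 genes were higher and 1508 lower at 96 h, and 6811 higher and 2088 lower at 120 h. With median ratio scaling these splits were 2406 and 2589 at 96 h and 3260 and 3476 at 120 h, and at 48 h 2245 and 1599 became 1739 and 2152. The median change of the 9 genes was -0.93, -0.69 and -0.93. Relative to the median of all genes, C3H3 was lower by a log2 difference of -2.76 at 120 h, CCR2 of -2.53 and CSE1 of -2.02. With median ratio scaling the counts at 48 and 120 h were 4 and 5 of 9, all lower.

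In P. davidiana limma called 0 of the 9 genes at 48 h, against 3.93% of all genes called, and 0 of the 9 had an unadjusted p under 0.05. At 96 h 2 changed (HCT1 lower, CCR2 higher), against 14.9%, and at 120 h 3 changed (HCT1 lower, HCT6 and CCR2 higher), against 19.8%. Without P. davidiana 0 h replicate 1 or 2, or any 1 of the 96 h libraries, the 96 h count was 1, HCT1. Calls over all genes were then 2331 to 2732, against 3661 with all libraries. Without 120 h replicate 1 or any 1 of the 0 h libraries the 120 h count was 2. Calls over all genes were then 3117 to 4232, against 4867. From 48 to 120 h only CCR2 of the 9 was called, and it rose, against 6% of all genes changed and 4.58% higher. The median change of the 9 genes by 120 h was 0.44, where that of all genes was 0.08.

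**Figure D3:**
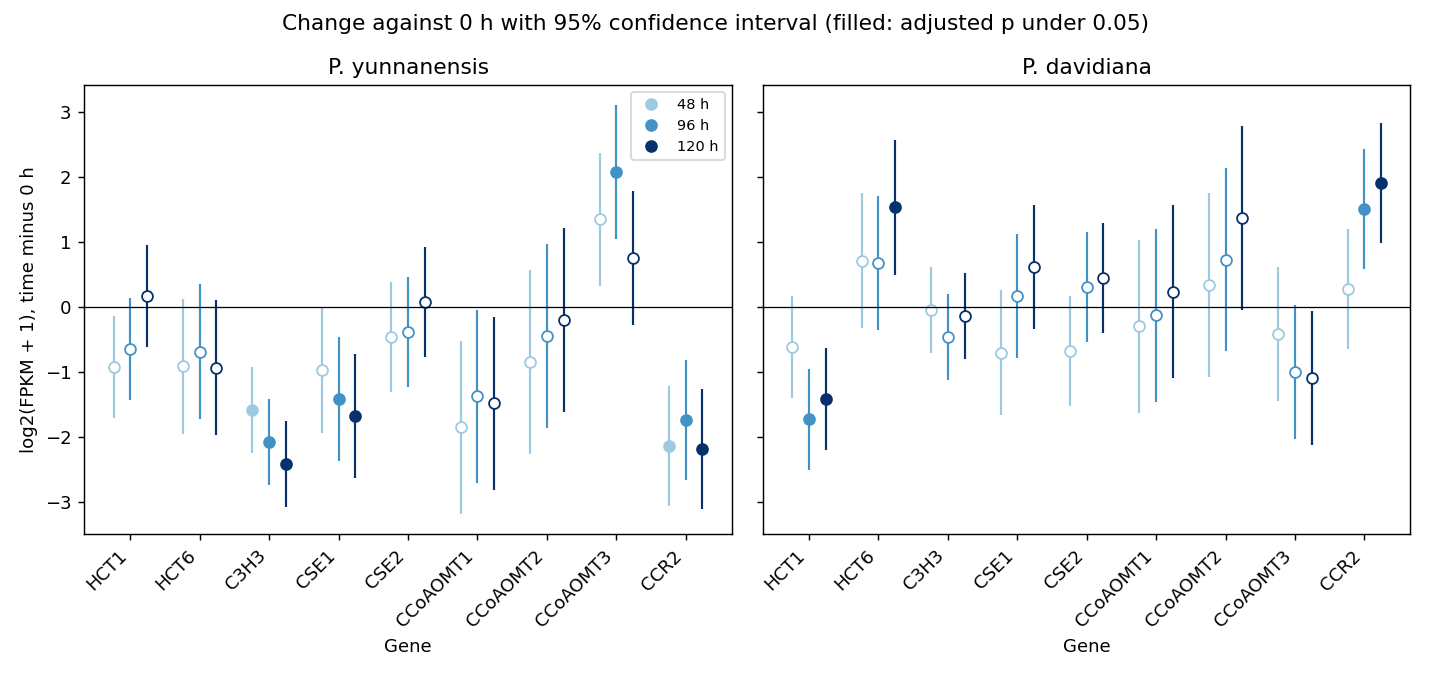
Change of each gene against 0 h on the log2(FPKM + 1) scale at 48, 96 and 120 h in each species, with 95% confidence intervals from the fit over 24 libraries (filled points, adjusted p under 0.05). In P. yunnanensis C3H3 and CCR2 lie below 0 at all 3 times, and in P. davidiana CCR2 lies at 1.51 and 1.91 at 96 and 120 h.

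Setting the poplars against each other at one time asked which genes stood at unequal levels. At 0 h 7 of the 9 genes differed, 6 of them lower in P. davidiana, against 41.4% of all tested genes that differed and 22.4% that were lower. At 48 h 4 differed and 3 were lower (C3H3, CSE1 and CCR2), against 41.9% and 24.7%, and at 96 h 4 differed and 3 were lower (HCT1, C3H3 and CCoAOMT1), against 45.8% and 31.9%. At 120 h 4 differed, HCT1 and C3H3 lower and CSE2 and CCoAOMT3 higher in P. davidiana, against 46.9%. Without P. davidiana replicate 2 or P. yunnanensis replicate 2 the count was 2. Calls over all genes were then 9610 and 11023, against 11556 with all libraries. With all libraries, the counts at 48, 96 and 120 h were close to the share of all genes. Over all genes, 4682 were higher and 5527 lower at 0 h, 4253 and 6083 at 48 h, 3436 and 7856 at 96 h and 3909 and 7647 at 120 h. Quantile normalization gave 5900 and 5109, 5547 and 5329, 5487 and 5380, and 5325 and 5842. With median ratio scaling more genes were lower at all 4 times, with 4501 and 6289, 4729 and 6068, 4671 and 6499, and 4952 and 6324. Fragments of a species farther from the reference align less well, and the part of this in the species differences was not tested.

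**Figure D4:**
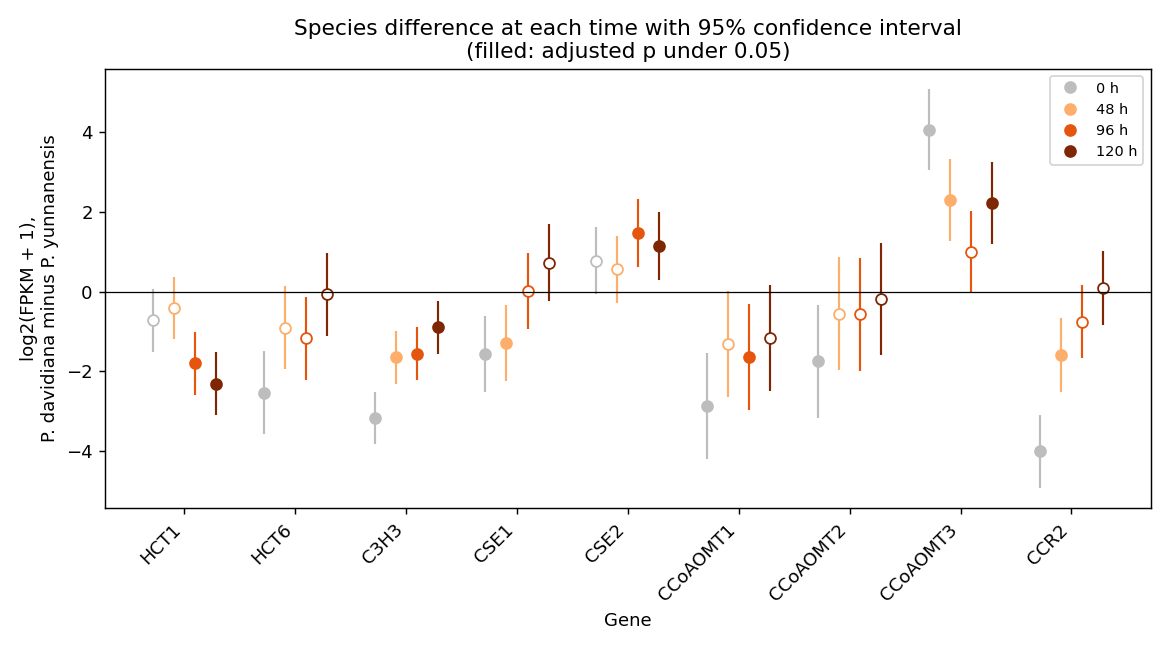
Species difference of each gene (P. davidiana minus P. yunnanensis, log2(FPKM + 1) scale) at 0, 48, 96 and 120 h, with 95% confidence intervals (filled points, adjusted p under 0.05). CCR2 goes from -4.01 at 0 h to 0.09 at 120 h, C3H3 from -3.17 to -0.89, and HCT1 from -0.72 to -2.30.

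The interaction asked whether time moved a gene by unequal amounts in the poplars. At 120 h 5 of the 9 did, 4 of them with the higher change in P. davidiana (HCT6, C3H3, CSE1 and CCR2) and HCT1 with the lower, against 14.9% of all genes and 5.78% with the higher change in P. davidiana. That split was 1425 higher and 2254 lower as deposited and 2068 and 1441 with median ratio scaling. At 96 h 3 did (C3H3, CCR2 and CCoAOMT3), against 9.09%. At 48 h limma called 0 of the 9, against 1.9% of all genes called. At an unadjusted p under 0.05 there were 4 of the 9, and the share of all genes at that threshold was not taken. The 120 h count was 2 without P. yunnanensis 0 h replicate 1, and 3 without P. davidiana 0 h replicate 1, P. davidiana 120 h replicate 1 or P. yunnanensis 120 h replicate 1. In these fits calls over all genes were 2124 to 3228, against 3679 with all libraries. The wood markers were read over the same times. At 120 h 4 of the 5 cellulose synthases fell in P. yunnanensis and 2 of 5 in P. davidiana, where 8.47% and 7.04% of all tested genes were lower. For a species difference in that change limma called 0 of 5, against 14.9% of all genes called, and 0 of 5 had an unadjusted p under 0.05. In P. yunnanensis at 0 h the summed marker level was lowest in replicate 2 and highest in replicate 3. HCT6, CSE1, CSE2 and the 3 CCoAOMT genes were also lowest in replicate 2. CSE2, CCoAOMT1 and CCoAOMT3 were highest in replicate 3, and HCT6, CSE1, CCoAOMT2 and CCR2 in replicate 1. HCT1 and C3H3 were highest in replicate 2. Whether the amount of wood-forming tissue had a part in these changes was not tested.

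The rest of the pathway was read from 12 further identifiers, of which 11 passed the filter on low values, with their enzymes assigned from the published P. trichocarpa names. They cover phenylalanine ammonia-lyase (PAL), cinnamate 4-hydroxylase (C4H) and 4-coumarate ligase (4CL) before HCT, and the syringyl-branch hydroxylase (CAld5H) and cinnamyl alcohol dehydrogenase (CAD) after it. In P. yunnanensis 2 of the 11 fell by 48 h, 3 by 96 h and 2 by 120 h, where 6.49%, 6.12% and 8.47% of all tested genes were lower, and none of the 11 was called higher. Of the 11, the deepest fall by 120 h was that of a PAL gene, Potri.016G091100.v3.1, from a mean of 419 FPKM at 0 h to 50.2 at 120 h (log2 change -2.96, SE 0.46, adjusted p = 0.000103). In P. davidiana 1 rose and 1 fell by 120 h, 2 of 11, which is close to the 19.8% of all genes that changed. A 4CL gene, Potri.001G036900.v3.1, rose from 5.23 to 74.5 FPKM (4.11, SE 0.75, adjusted p = 0.000699), and the CAD gene, Potri.009G095800.v3.1, fell by 1.24 (SE 0.35, adjusted p = 0.0177). That 4CL gene and the PAL gene changed differently between the species by 120 h (4.73, SE 1.06, adjusted p = 0.00617, and 2.31, SE 0.64, adjusted p = 0.0215). They were the only 2 of the 11 called there, against 14.9% of all genes. The other 4CL gene, Potri.003G188500.v3.1, had means of 0.391 FPKM at 0 h and 0.879 at 120 h in P. davidiana and was not called. The alternatives were not run on the pathway genes.

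Likeness to each gene was measured as Pearson's r of log2(FPKM + 1) over the 24 libraries after the mean of each species was taken away, so that libraries and times are shared by all points. The closest genes of the 24642 others had r of 0.84 to 0.92. They were Potri.019G074700.v3.1 for HCT1 (r = 0.91), Potri.008G151100.v3.1 for HCT6 (r = 0.88) and MSTRG.27150 for C3H3 (r = 0.92). Those for CSE1 and CSE2 were Potri.008G055900.v3.1 (r = 0.90) and Potri.009G168600.v3.1 (r = 0.91), and for CCR2 it was Potri.011G057100.v3.1 (r = 0.91). For the methyltransferases they were Potri.010G087900.v3.1 for CCoAOMT1 (r = 0.85), Potri.003G148400.v3.1 for CCoAOMT2 (r = 0.86) and Potri.002G225500.v3.1 for CCoAOMT3 (r = 0.84). No member was the closest gene to another. The nearest pairs of members were CSE1 with CCR2 and HCT6 with CCoAOMT2, both at r = 0.74, and CCoAOMT2 ranked 63 in the list of HCT6. For HCT1 and CCoAOMT3 the best r with another member was 0.23 (with C3H3, rank 6292) and -0.15 (with CCoAOMT1, rank 18953). Within a species these values differed, since HCT1 with CCoAOMT3 had r = -0.67 in P. yunnanensis and 0.59 in P. davidiana, and HCT1 with C3H3 had 0.13 and 0.64 (12 libraries each). CSE1 and CSE2 ran together in P. davidiana (r = 0.91 over 12 libraries) and less so in P. yunnanensis (r = 0.31), and none of these differences between the species was tested.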

How the data were processed

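The members were defined by enzyme step and identifier, with no threshold on their values, but they and all gene lists were chosen with earlier results of these data known. Stem mRNA was sequenced on an Illumina platform, per the labels' protocols, and the authors deposited 1 FPKM value per gene and library, per the file headers. Aligner, counter, build and annotation were not named in the sources used. The gene identifiers are of the P. trichocarpa form ending in v3.1, beside others such as MSTRG.27150. FPKM depends on gene length and on the total of mapped fragments. Libraries were grouped by their titles. The 24643 of 43836 genes that reached 1 FPKM in 3 libraries or more entered a limma 3.58.1 model (R 4.3.3, variance trend) of log2(FPKM + 1). One fit over all 24 libraries gave each group a mean and left 16 residual degrees of freedom. Benjamini-Hochberg adjustment ran over all tested genes within each of 15 comparisons, and an adjusted p under 0.05 is a call. The fit was first run on simulated data for 1 comparison, P. davidiana at 120 h against 0 h, with the same spread in all groups. That run did not cover the wider spread of the P. yunnanensis 0 h libraries. No replicate libraries held identical values. Relative depth was the most frequent ratio of values from 0.03 to 0.3 FPKM between libraries. Summaries and figures used Python 3.11.15, numpy 2.4.6, pandas 2.3.3 and matplotlib 3.10.9. Named are all 9 members, the pathway genes given as examples, and the closest gene to each member. Of the pathway list, 1 gene is not reported here. Promoter and protein sequences were not analysed here.

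Replicates share numbers across groups, and the labels do not say what a number marks. Deviations from the group means correlated above 0.1 in all 3 same-numbered pairs in 1 of 12 comparisons, P. davidiana at 48 h against 0 h (0.297, 0.287 and 0.256). Alternatives changed the pseudocount (0.1), the low-value filter (none, or 5 FPKM), the scaling (median ratio, or quantile normalization) and the model (no trend, compared groups alone, a spread weighted by group, a block for the replicate number). Each library was also left out once.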

Additional observations from a re-analysis of the deposited data

Results flagged for a closer look

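The changes against 0 h differed between the species, by the interaction test in limma over all genes, for 8 pairs of gene and time. At 96 h these were C3H3 (1.61, adjusted p = 0.0296), CCoAOMT3 (-3.08, adjusted p = 0.00939) and CCR2 (3.26, adjusted p = 0.00323), where a positive log2 value means a higher change in P. davidiana, with 3 libraries in each of 4 groups. At 120 h they were HCT1 (-1.58, adjusted p = 0.0494), HCT6 (2.46, adjusted p = 0.024), C3H3 (2.28, adjusted p = 0.00248), CSE1 (2.29, adjusted p = 0.0231) and CCR2 (4.10, adjusted p = 0.000365). The P. yunnanensis 0 h libraries, which stood farthest apart, enter all of them.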

How the results depend on the processing

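Over 135 pairs of gene and comparison, 42 were called, 20 of them under every alternative run, and none of the 42 changed sign. These pairs share libraries and are not independent, and the pooled count was not tested against all genes. The share of all tested genes called was lowest, at 1.87%, from 48 to 120 h in P. yunnanensis. It was highest, at 46.9%, between the species at 120 h. The alternatives reuse the same libraries, so a kept sign says little about stability. With the compared groups alone in the fit, the number of the 9 genes called was 0 at 48 h, 1 at 96 h and 1 at 120 h in P. yunnanensis, 1 in P. davidiana at 120 h against 0 h and 0 against 48 h, 4 between the species at 0 h, and 3 for the species difference in change by 120 h. Over all genes, calls went from 4867 to 4336 in P. davidiana at 120 h against 0 h and from 1478 to 444 against 48 h. Between the species at 0 h they went from 10209 to 6122, and for the difference in change by 120 h from 3679 to 2191. Those of the P. yunnanensis comparisons are not given here, so its lower counts cannot be read as particular to the 9 genes. Median ratio scaling gave 4 at 48 h and 5 at 120 h in P. yunnanensis, 0 in P. davidiana from 48 to 120 h, and 1 for the difference in change by 48 h. With it, calls over all genes from 48 to 120 h in P. davidiana went from 1478 to 1625. Those for the difference in change by 48 h went from 467 to 604. Quantile normalization gave 5 at 120 h in P. yunnanensis and 1 for the difference in change by 48 h, as did a filter of 5 FPKM for the latter (1). A spread weighted by group gave 3 in P. davidiana from 48 to 120 h (CCR2, CSE1 and CSE2) and 3 for the difference in change by 120 h. Over all genes these went from 1478 to 2707 and from 3679 to 2916. In P. davidiana at 96 h the count stayed at 2 with the compared groups alone, but the genes were HCT1 and CCoAOMT3 in place of HCT1 and CCR2. The cause of these shifts was not tested.

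With the replicate number as a block, the count between the species at 120 h was 2 in place of 4, and no other count of calls moved by over 1.5 times. Calls over all genes in that comparison went from 11556 to 8891. Leaving out 1 library at a time, the counts ranged from 2 to 4 in P. yunnanensis at 48 h, from 1 to 2 in P. davidiana at 96 h and from 0 to 1 between 48 and 120 h, from 2 to 4 between the species at 120 h, from 0 to 1 for the difference in change by 48 h and from 2 to 6 by 120 h. Calls over all genes moved as well. For the difference in change by 120 h they ranged from 2124 to 4696, against 3679 with all libraries. Among differences that passed no test, HCT1 and CSE2 at 120 h in P. yunnanensis, and HCT6 and CCoAOMT2 between the species at 120 h, turned sign with median ratio scaling. Calls gained under an alternative and not given above were, in P. yunnanensis, HCT1 at 48 h (median ratio, adjusted p = 0.0492) and HCT6 at 96 h (quantile, 0.048) and 120 h (both scalings, 0.0392 and 0.0134). Between the species they were HCT6 at 96 h (3 alternatives, 0.0351 to 0.049), CSE2 at 0 h (2 alternatives, 0.0117 and 0.0208) and 48 h (quantile, 0.024), and, with the compared groups alone, CCoAOMT1 at 48 and 120 h (0.0398 and 0.0222) and CCR2 at 96 h (0.0134). For the difference in change they were, each without 1 library, C3H3 by 48 h (0.0284) and CCoAOMT1 and CCoAOMT3 by 120 h (0.0493 and 0.0146).

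Absolute depth is unknown, so no counting error is given, and 3 libraries a group limit the precision. Log2(FPKM + 1) understates changes of low genes such as HCT6.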
